A study of Mus musculus with 10 samples.

Results

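The tropomyosins, tropomodulins and leiomodins of mouse C2C12 cells were followed in cells given synthetic miR-142-3p, a microRNA. All array probes whose gene name was Tpm1, Tpm2, Tpm3, Tpm4, Tmod1, Tmod3, Tmod4, Lmod1, Lmod2 or Lmod3 were taken. These 10 genes were read by 17 of the 55681 probes on the array, of which 11 belonged to the 4 tropomyosins, 3 to the 3 tropomodulins and 3 to the 3 leiomodins. C2C12 is an established mouse myoblast line whose cells can leave the cell cycle and fuse into myotubes. One group of cells received the mimic, a synthetic RNA that acts as the mature microRNA, and the control group received a scrambled sequence. Both groups shared the dose of 150 nM, the carrier Lipofectamine 2000, a medium with serum and high glucose, an estimated transfection efficiency of about 60% and RNA collection at 72 hours. The labels list 6 mimic and 4 scramble samples as independent transfections. The file headers place these samples on 5 array positions of 1 slide, each scanned on 2 dates, so each position's scans were averaged, leaving 3 mimic arrays to compare with 2 scramble arrays. The titles of the scramble samples alone carry a remark on re-analysis, which the labels do not explain. The labels tie no position to a culture, and the p-values therefore measure only how far these arrays spread, which may be technical.

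Tropomyosins are coiled-coil proteins that lie end to end along actin filaments. In striated muscle they act with the troponin complex to let myosin reach actin when calcium rises, and in other cells they govern which proteins bind the filament. Tropomodulins cap the slow-growing pointed end of the filament by holding both actin and tropomyosin. Leiomodins, their relatives, start new filaments and lengthen those of muscle. A tropomyosin gene makes several transcripts from alternative promoters and alternative first, internal and last exons, some typical of muscle and some of other cells, so a probe reads a subset of the transcripts of its gene.

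The sequences that place these probes are shown first. The microRNA supplied by the mimic is set beside the stretch of the Tpm4 probe that holds its seed match, the only such match among the 17 probes. Capitals mark the seed, bases 2 to 8 of the microRNA, and its complement ACACTAC in the probe. The microRNA sequence is the RefSeq entry for the mouse form (GRCm38.p6, chr11:87756903-87756925, plus strand), and the probe stretch lies at chr8:74676893-74676922 on the plus strand in mm9, the build of the array files.
mmu-miR-142a-3p: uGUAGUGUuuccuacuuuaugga
Tpm4 probe A_51_P225592, 30 bases: tattaagcatcACACTACcagggagatgaa
The heptamer was present in 144 of all 55681 probes, or 0.259%. A match in a probe is a description of these letters, and whether the transcript is bound there was not tested.

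Some tropomyosin probes are shown next, because the probes of 1 gene can read different stretches and different transcripts. The Tpm1 probe lies at chr9:66871166-66871225 on the minus strand of mm9. The Tpm2 probes lie at chr4:43531276-43531335 and chr4:43532262-43532321 on the minus strand, and the Tpm3 probe at chr3:89892985-89893044 on the plus strand.
Tpm1 A_55_P2032192: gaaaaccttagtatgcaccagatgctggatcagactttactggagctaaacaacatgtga
Tpm2 A_52_P315976: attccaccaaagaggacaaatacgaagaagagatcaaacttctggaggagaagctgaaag
Tpm2 A_55_P2121408: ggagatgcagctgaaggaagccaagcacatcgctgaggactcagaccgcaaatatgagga
Tpm3 A_55_P2090205: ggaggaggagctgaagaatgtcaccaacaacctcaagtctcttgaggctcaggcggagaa
The array files name each probe for 1 RefSeq transcript but list further transcripts that it reads, so a probe is not specific to the variant it is named for. The Tpm1 probe is named for variant 2 and lists 4 transcripts. The first Tpm2 probe, named for variant 1, lists 3 transcripts, which include both that the second, named for variant 2, lists. The Tpm3 probe, for variant 4, lists 1.

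In the mimic arrays Lmod3 fell 39.5-fold in the fit, to a level near background, and a pair of overlapping Tpm1 probes fell 4.33-fold and 4.01-fold. Tmod1 was not above background on any mimic scan, and its fall was 6.27-fold with the mimic arrays set to the floor described below. No probe of the other members passed the test, and the values of Tpm4, Tmod3, Tmod4 and the Tpm3 probe A_55_P2090209 were not lower in the mimic group mean. Signals are given as log2 of the background-corrected intensity minus the 75th percentile of the scan, so that 0 is the level of that percentile. A probe cleared background on a scan where the scanner software marked it as well above background, and probes that cleared it on 4 or more of 10 scans were kept for testing. This left 17455 probes and 13 of the 17 member probes, in 8 of the 10 genes. Of these 13 probes, 4 fell and 0 rose at an adjusted p below 0.05 in limma. The Tmod1 probe, which is among those that fell, was kept through its scramble scans alone. Lmod3 cleared background on 3 mimic and 4 scramble scans, so it too passed the filter only with its scramble scans. Over all 17396 probes that had a value on every array, 4.10% fell and 5.42% rose, or 9.53% in either direction. Without scramble array 1, 7 member probes and 4502 of all probes passed, against 1657 of all probes with every array, but the lone scramble array is then assumed to vary like the mimic arrays. The median difference of the 13 member probes was −0.78, against 0.06 for all probes tested. All 3 mimic arrays lay below both scramble arrays for 8 member probes and above both for 2, while over all probes tested these shares were 18.1% and 24.4%, or 42.5% without overlap in either direction. The samples are bulk RNA, in which fewer cells of a type and less RNA per cell cannot be told apart.

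**Figure D1:**
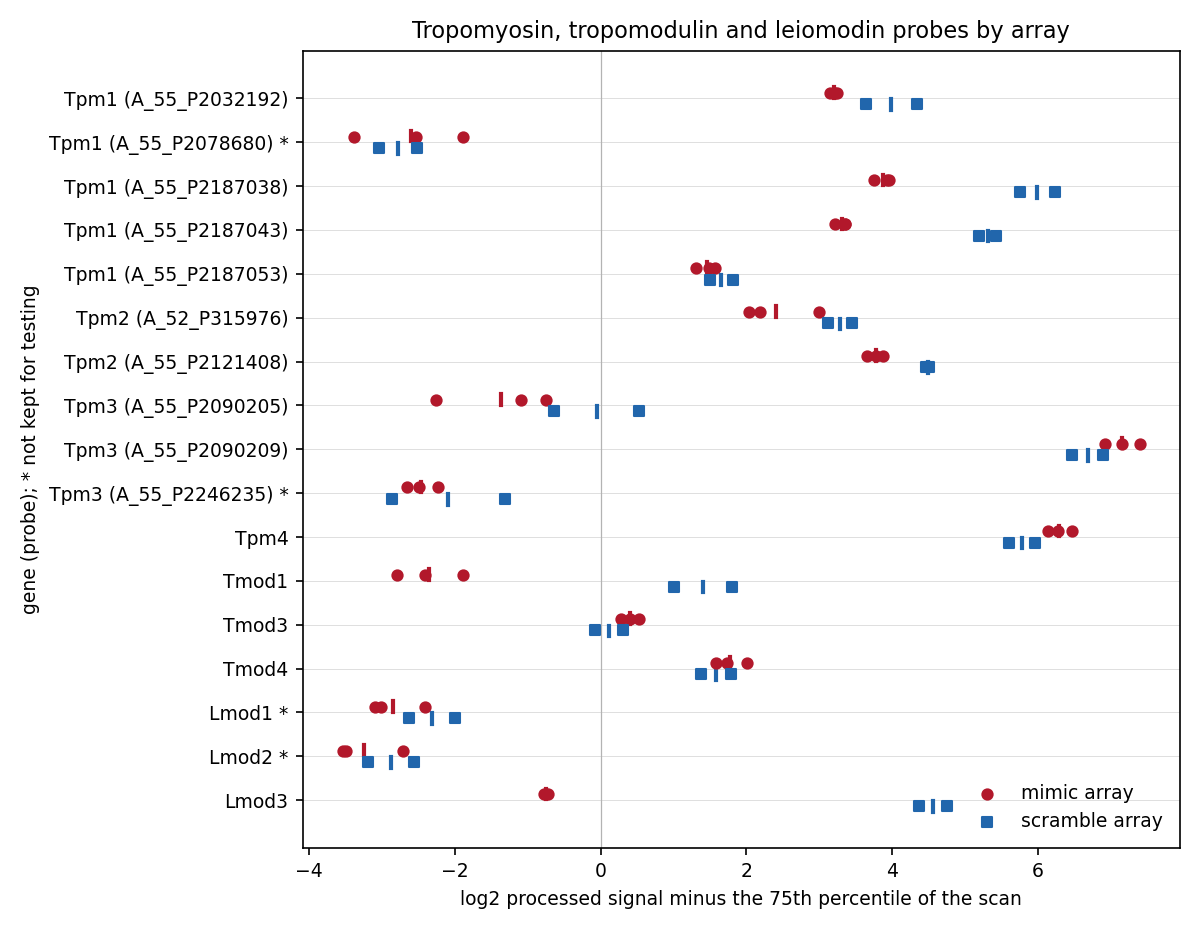
Log2 processed signal minus the 75th percentile of the scan (x axis) for the 17 probes (y axis, probe names where a gene has several, asterisks where the probe was not kept for testing), with circles for the 3 mimic arrays, squares for the 2 scramble arrays and short bars for group means. Lmod3, Tmod1 and the Tpm1 probes A_55_P2187038 and A_55_P2187043 show the widest gaps between groups, and the bright Tpm3 and Tpm4 probes lie slightly higher in the mimic arrays; levels of different probes are not comparable.

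Among the tropomyosins, Tpm1 encodes the alpha chain that is abundant in striated muscle and, through other transcripts, in many other cells. It was read by 5 probes on the minus strand of chromosome 9. Probe A_55_P2187038 at chr9:66875796-66875855, named for transcript variant 1 and listing 3 transcripts, gave 3.74, 3.93 and 3.95 in the mimic arrays and 6.23 and 5.75 in the scramble arrays. Every mimic array was lower than either scramble array by well over the spread within a group, with means of 3.88 ± 0.11 (SD, n = 3) and 5.99 ± 0.34 (SD, n = 2). The difference was −2.11 ± 0.22 (SE, 95% limits −2.63 to −1.60), with an adjusted p of 0.000700 in limma.

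Probe A_55_P2187043 at chr9:66875782-66875841 shares 46 bases with the preceding one, lists the same transcripts and is therefore no independent reading. It gave 3.35, 3.36 and 3.22 in the mimic arrays against 5.42 and 5.19 in the scramble arrays. The groups were again fully apart, at 3.31 ± 0.08 (SD, n = 3) and 5.31 ± 0.16 (SD, n = 2). Its difference was −2.00 ± 0.20 (SE, 95% limits −2.46 to −1.55), with an adjusted p of 0.000495 in limma.

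The other Tpm1 probes gave smaller differences. Probe A_55_P2032192, which is shown above, gave 3.15, 3.22 and 3.25 in the mimic arrays against 3.64 and 4.34 in the scramble arrays. The mimic values were all lower, but the scramble arrays lay far apart, and the difference of −0.78 ± 0.25 (SE, 95% limits −1.35 to −0.22) had an adjusted p of 0.0916 in limma. Probe A_55_P2187053 at chr9:66872131-66872190, named for variant 9 and listing 2 transcripts, gave 1.31, 1.57 and 1.48 against 1.50 and 1.81. These groups overlapped, with a difference of −0.20 ± 0.21 (SE, 95% limits −0.68 to 0.28) and an adjusted p of 0.589 in limma. The remaining probe, A_55_P2078680 at chr9:66880274-66880333 for variant 5, did not clear background on any scan.

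**Figure D2:**
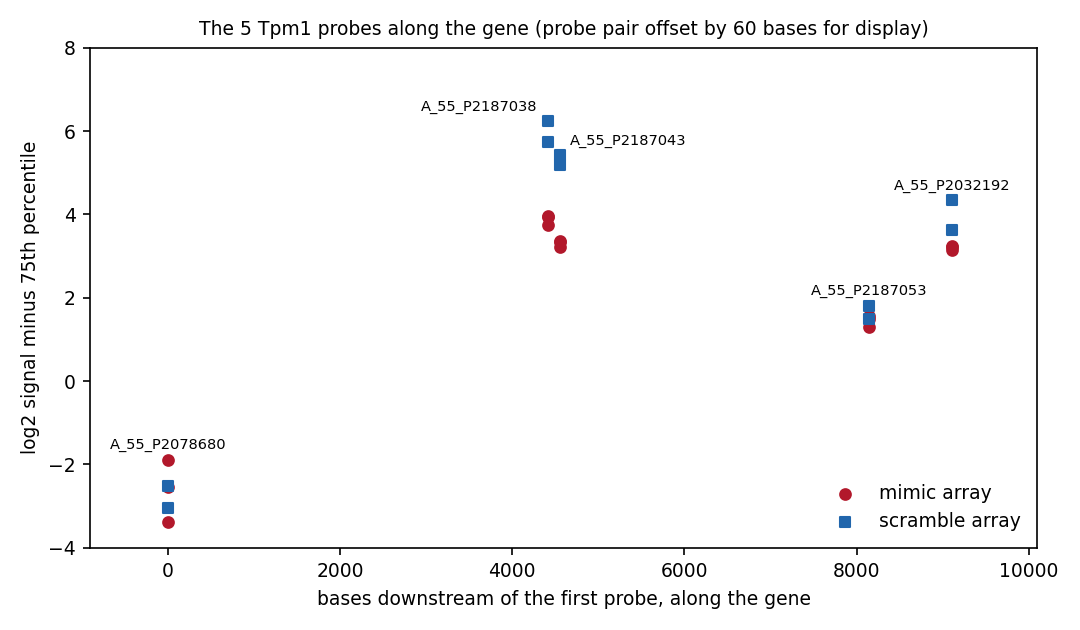
Log2 processed signal minus the 75th percentile of the scan (y axis) for the 5 Tpm1 probes against their distance in bases downstream of the first probe along the gene (x axis), with circles for mimic arrays and squares for scramble arrays. The overlapping pair at 4478 and 4492 bases separates the groups, the probe at 8143 bases overlaps, the probe at 9108 bases shows a smaller gap, and the first probe lies at background; the pair is drawn slightly apart for display.

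Whether the Tpm1 probes responded unequally was tested on the per-array difference between probes, alongside all 5091 pairs of kept probes that share a gene. The response of A_55_P2187043 minus that of A_55_P2187053 was −1.80 ± 0.25 (SE, 95% limits −2.40 to −1.20), but its adjusted p over all pairs was 0.110 in limma. The like comparison for A_55_P2187038 gave −1.91 ± 0.28 (SE, 95% limits −2.59 to −1.24) and an adjusted p of 0.113 in limma. Against A_55_P2032192, the fall of A_55_P2187038 was larger by 1.33 ± 0.36 (SE, 95% limits 0.45 to 2.21) and that of A_55_P2187043 by 1.22 ± 0.31 (SE, 95% limits 0.46 to 1.97), with adjusted p-values of 0.292 and 0.272 in limma. None of the 8 pairs of member probes passed after adjustment, as was so for all but 4 of the 5091 pairs (0.0786%). Both comparisons with A_55_P2187053 passed with normexp background correction, at adjusted p-values of 0.0192 for A_55_P2187043 and 0.0277 for A_55_P2187038 in limma. They also passed without scramble array 1, at 0.0399 and 0.0363 in the same order, where 1 scramble array is left and is assumed to vary like the mimic arrays. An unequal response of the Tpm1 transcripts was therefore not established at these 5 arrays, although its unadjusted limits excluded 0.

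Tpm2 encodes the beta chain, found in skeletal and smooth muscle among other tissues. Its probe A_55_P2121408 gave 3.66, 3.88 and 3.78 in the mimic arrays and 4.50 and 4.47 in the scramble arrays. The groups did not overlap, and the difference of −0.72 ± 0.19 (SE, 95% limits −1.16 to −0.27) had an adjusted p of 0.0566 in limma, just short of the threshold. Probe A_52_P315976 gave 2.19, 2.03 and 3.00 against 3.12 and 3.45. Mimic array 3 lay close to the scramble arrays here, and the difference was −0.88 ± 0.31 (SE, 95% limits −1.58 to −0.17), with an adjusted p of 0.122 in limma. The probes of Tpm2 differed in their response by −0.16 ± 0.35 (SE, 95% limits −1.001 to 0.68, adjusted p of 0.878 in limma).

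Tpm3 encodes a chain of slow muscle fibres and, through other transcripts, a widespread cytoskeletal form. Its probe A_55_P2090209 at chr3:89904428-89904487 on the plus strand is named for variant 3 and lists 4 transcripts, among them those of the other Tpm3 probes. It gave 6.91, 7.40 and 7.14 in the mimic arrays against 6.89 and 6.47 in the scramble arrays. The mimic arrays were all higher, the lowest of them by a small margin, and the difference of 0.47 ± 0.24 (SE, 95% limits −0.07 to 1.02) had an adjusted p of 0.258 in limma. Probe A_55_P2090205, for variant 4, was dim and cleared background on only 2 of 6 mimic and 2 of 4 scramble scans. Its values were −0.75, −2.26 and −1.10 against −0.64 and 0.53, which is a difference of −1.32 ± 0.48 (SE, 95% limits −2.42 to −0.21) with an adjusted p of 0.135 in limma. It was −0.73 without scramble array 2, −0.60 with normexp background correction and −1.90 without scramble array 1, where it passed (adjusted p of 0.0400 in limma). The probe for variant 1, A_55_P2246235 at chr3:89877669-89877728, did not clear background on any scan. The response of A_55_P2090205 differed from that of A_55_P2090209 by −1.79 ± 0.70 (SE, 95% limits −3.48 to −0.09), with an adjusted p of 0.420 in limma.

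Tpm4 encodes a tropomyosin of non-muscle cells and of regenerating muscle. Its only probe, A_51_P225592 at chr8:74676891-74676950, holds the seed match shown above. It gave 6.14, 6.27 and 6.46 in the mimic arrays and 5.95 and 5.60 in the scramble arrays. All mimic values were higher, by 0.51 ± 0.22 (SE, 95% limits 0.02 to 1.01), and the adjusted p of 0.185 in limma did not pass. The probe shares a run of 26 bases with a probe of LOC102633627, described in the array files as tropomyosin alpha-4 chain-like. Whether the probe also reads that record was not tested.

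Of the tropomodulins, Tmod1 encodes the pointed-end cap of striated muscle and red blood cells. Its probe A_51_P297069 at chr4:46127384-46127441 on the plus strand gave −1.88, −2.40 and −2.79 in the mimic arrays and 1.01 and 1.80 in the scramble arrays. It cleared background on 0 mimic scans and on all 4 scramble scans, with means of −2.36 ± 0.45 (SD, n = 3) and 1.40 ± 0.56 (SD, n = 2). The mimic level was therefore not measured, and Tmod1 was 6.27-fold lower with the mimic arrays set to a floor. Each mimic array was given the lowest signal that cleared background on it, or the probe's signal where that was greater. The mean of these was set against the scramble mean. This value is no strict minimum, because probes above the floor can fail to clear background. Tmod3 gave 0.18 on a scan of mimic array 2 without clearing it, where the floor of that array was −0.48. Tmod1 was kept for testing through its scramble scans alone, so its fit sets scramble signal against mimic values not above background. The fitted difference of −3.76 ± 0.33 (SE) had an adjusted p of 0.000294 in limma. With normexp background correction the fitted difference was −2.02, with an adjusted p of 0.00214 in limma.

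Tmod3, the widely expressed tropomodulin, gave 0.41, 0.28 and 0.53 in the mimic arrays against 0.30 and −0.08 in the scramble arrays at chr9:75346342-75346401. The groups overlapped and the difference was 0.29 ± 0.21 (SE, 95% limits −0.20 to 0.78, adjusted p of 0.438 in limma). Tmod4, the tropomodulin of skeletal muscle, gave 1.73, 2.01 and 1.59 against 1.79 and 1.38 at chr3:94933056-94933115. It too overlapped, with a difference of 0.19 ± 0.23 (SE, 95% limits −0.33 to 0.72, adjusted p of 0.640 in limma), so a change of this muscle member was not detectable beside the fall of Tmod1. On the log2 scale these limits leave room for a rise of up to 0.78 in Tmod3 and 0.72 in Tmod4. They also leave room for a fall, to −0.20 in Tmod3 and −0.33 in Tmod4.

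Of the leiomodins, Lmod3 encodes the form of skeletal and heart muscle whose loss causes severe nemaline myopathy, a disease of thin filaments. Its probe A_51_P427964 at chr6:97188607-97188666 on the minus strand gave −0.74, −0.73 and −0.77 in the mimic arrays and 4.75 and 4.36 in the scramble arrays. The mimic arrays lay within a narrow band far below both scramble arrays, at −0.75 ± 0.02 (SD, n = 3) against 4.56 ± 0.27 (SD, n = 2). It cleared background on 3 of 6 mimic scans, on neither of mimic array 2, and on all 4 scramble scans. The filter therefore kept the probe only with its scramble scans. The difference was −5.30 ± 0.21 (SE, 95% limits −5.78 to −4.83), with an adjusted p of 2.28e-05 in limma. With normexp background correction it was −4.20, with an adjusted p of 2.78e-05 in limma.

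Lmod1, the leiomodin of smooth muscle, and Lmod2, the leiomodin of heart muscle, did not clear background on any of the 10 scans. Their probes lie at chr1:137264581-137264640 and chr6:24554487-24554546. They have no order between groups at that level and were not tested.

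**Figure D3:**
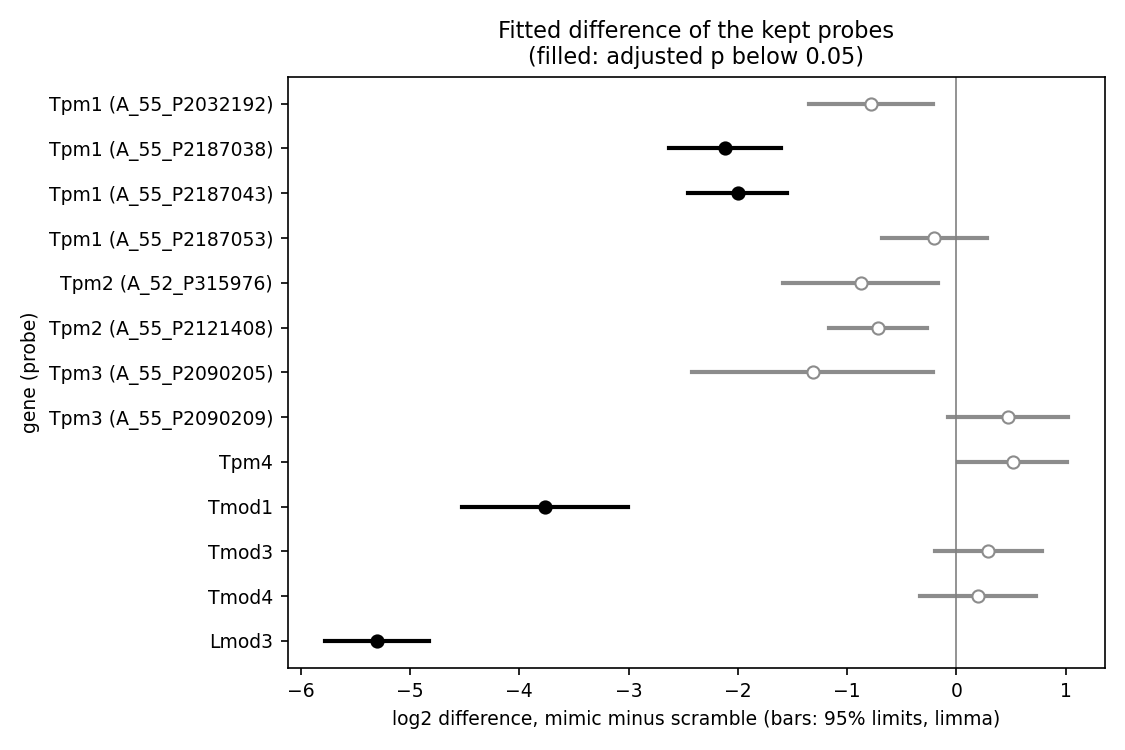
Fitted log2 difference, mimic minus scramble (x axis), of the 13 kept probes (y axis) with 95% limits from limma as bars and filled points where the adjusted p was below 0.05. The 4 filled points are Lmod3, Tmod1 and the overlapping Tpm1 pair, all below 0. The Tmod1 point is the fitted value of a probe not above background in the mimic scans. Its fall is 6.27-fold with the mimic arrays set to a detection floor.

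The probes that fell were also compared within each slide row, both of which held both groups. In the row with mimic arrays 1 and 3 and scramble array 1 the difference was −5.51 for Lmod3, −2.38 for Tpm1 A_55_P2187038 and −2.14 for A_55_P2187043. In the row with mimic array 2 and scramble array 2 it was −5.09, −1.82 and −1.84 in the same order. For Tmod1 the mimic level was not above background in either row, and each mimic array lay below the scramble array of its row. These rows hold too few arrays for a test. With the slide row as a block, the adjusted p-values in limma were 0.000307 for Lmod3, 0.00202 for Tmod1, and 0.00348 and 0.00299 for the Tpm1 pair. The scans of either date alone gave −5.19 and −5.42 for Lmod3 and −1.92 and −2.31 for A_55_P2187038.

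Most of the measured genes on a list of thin filament proteins and their sarcomere partners fell. The list of 26 genes (actins, troponins, nebulin and its relatives, Tmod2, alpha-actinins, kelch proteins that stabilise thin filaments and, from the thick filament, myosin-binding proteins C and H) had 21 with a kept probe, each taken through its probe with the highest mean. Of these, 16 fell and 0 rose, with a median difference of −2.13, and without scramble array 1 as many fell and 1 rose. Among all genes treated in this way 3.79% fell, 5.72% rose and the median was 0.09. Tnnc1 and Tnni1, which were among those that fell, cleared background on 1 and 3 mimic scans. Both cleared it on 4 scramble scans, so they passed the filter only with these. The list was chosen with earlier results of these data known.

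Actc1, the cardiac alpha-actin that is also made in young skeletal muscle, gave 2.14, 2.18 and 1.76 in the mimic arrays against 7.33 and 7.47 in the scramble arrays. Its difference was −5.37 ± 0.22 (SE, 41.4-fold lower, adjusted p of 2.28e-05 in limma). Tnnc1, the calcium-binding troponin of slow and heart muscle, gave −1.43, −1.25 and −1.40 against 3.54 and 4.02. It cleared background on only 1 of 6 mimic scans, so its mimic level was hardly measured, and its fitted difference was −5.14 ± 0.22 (SE, adjusted p of 2.28e-05 in limma).

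Tnnt1 and Tnnt2, the slow skeletal and cardiac troponins that tie the complex to tropomyosin, fell as well. Tnnt1 gave 1.73, 1.99 and 1.78 against 6.25 and 5.97, a difference of −4.27 ± 0.21 (SE, adjusted p of 2.65e-05 in limma). Tnnt2 gave 0.44, 0.36 and 0.59 against 4.45 and 4.49, a difference of −4.01 ± 0.20 (SE, adjusted p of 2.65e-05 in limma). The 5 kept genes that did not pass were Mybpc1, Mybpc2, Klhl40 and the cytoplasmic actins, with −0.10 ± 0.20 (SE) for Actb and −0.03 ± 0.22 (SE) for Actg1. The other 5 genes of the list, among them the brain tropomodulin Tmod2, the cardiac troponin Tnni3 and the alpha-actinin Actn2, did not clear background on any scan.

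Over all genes taken through 1 probe, 3.79% fell and 5.72% rose, with a median difference of 0.09. Genes of proteins that cap, sever or turn over actin filaments were read beside these shares. Of 22 such genes 19 had a kept probe, and 2 of these fell and 0 rose, with a median difference of −0.24. Without scramble array 1, 4 fell and 3 rose, whereas 1 fell and 0 rose under 7 other alternatives, such as no filter or the second scan date alone. Cfl2, the muscle cofilin that severs filaments, gave 3.15, 3.52 and 3.08 in the mimic arrays against 5.39 and 5.59 in the scramble arrays, a difference of −2.24 ± 0.22 (SE, 4.73-fold lower, adjusted p of 0.000486 in limma). Fhod3, a formin that helps build sarcomeric filaments, gave −0.90, −1.31 and −0.62 against 0.85 and 0.36, a difference of −1.55 ± 0.27 (SE, 2.92-fold lower, adjusted p of 0.00971 in limma). It cleared background on 4 of 6 mimic scans. The genes of the barbed-end capping protein, Capza1, Capza2 and Capzb, gave differences of −0.25 ± 0.24, −0.24 ± 0.20 and −0.08 ± 0.23 (SE), and none passed. Cap2, Ssh1 and Limk2 had no kept probe. Whether these lists differ from each other was not tested.

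Among 11 genes of transcription control that is tied to actin or to muscle genes, 8 had a kept probe. Of these 2 fell and 0 rose, with a median difference of −0.40. The shares over all genes were 3.79% and 5.72%, with a median of 0.09. Myog, the regulator that starts myoblast differentiation, gave −0.79, −0.38 and −0.70 in the mimic arrays against 6.24 and 6.66 in the scramble arrays. It cleared background on 5 of 6 mimic scans, and the difference was −7.08 ± 0.23 (SE, 135-fold lower, adjusted p of 8.09e-06 in limma). Myod1, which commits cells to the muscle lineage, gave 1.73, 2.07 and 1.86 against 4.70 and 5.58, a difference of −3.25 ± 0.28 (SE, 9.51-fold lower, adjusted p of 0.000287 in limma). Srf, the factor that answers to free actin together with its partners Mkl1 and Mkl2, had a difference of −0.70 ± 0.20 (SE, adjusted p of 0.0685 in limma). Mkl1 and Mkl2 gave −0.02 ± 0.21 and 0.37 ± 0.25 (SE), and neither passed. Myocd and Tead4 did not clear background on any scan.

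**Figure D4:**
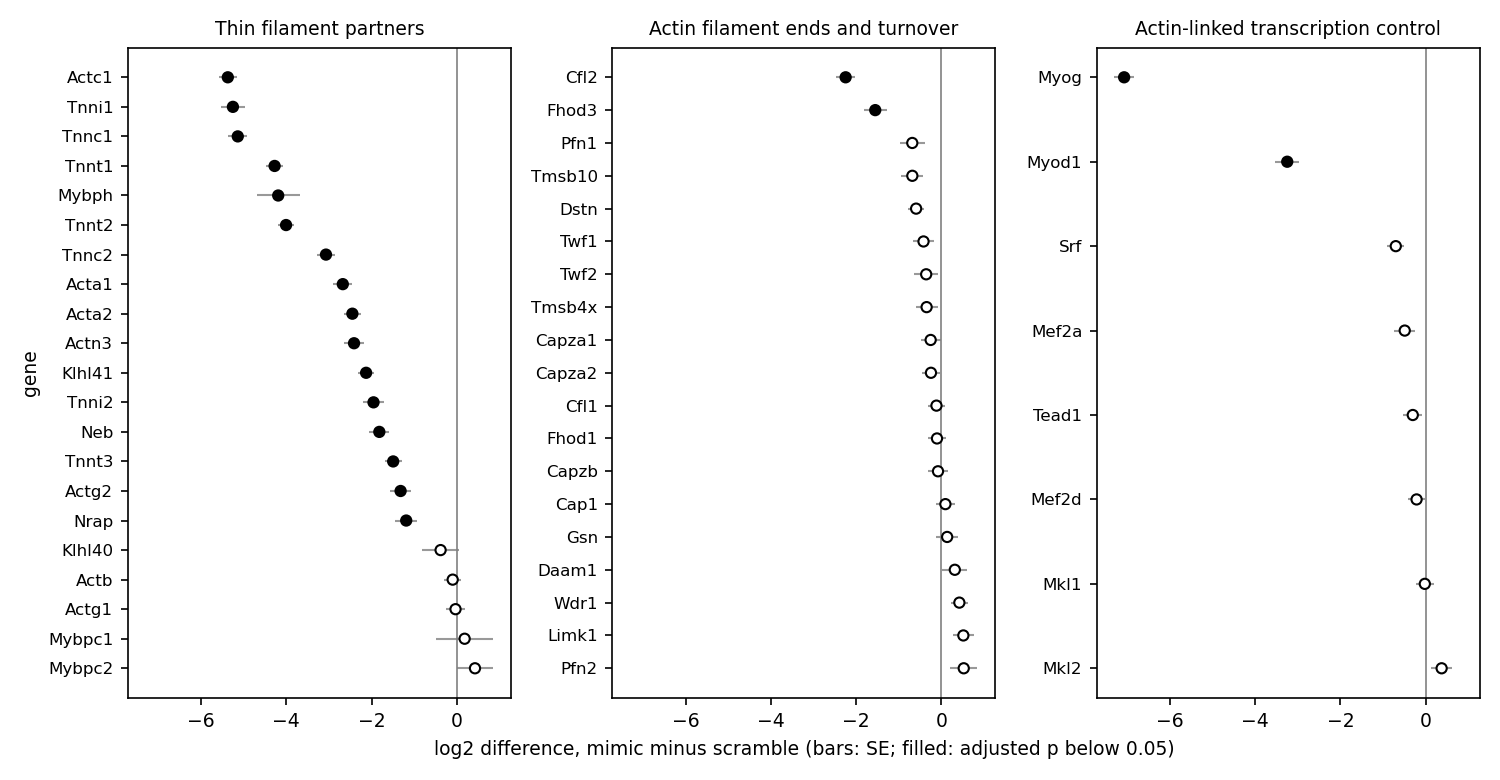
Fitted log2 difference, mimic minus scramble (x axis), of each gene with a kept probe (y axis) in 3 lists, with SE as bars and filled points where the adjusted p in limma was below 0.05. Filled points number 16 of 21 for thin filament partners, 2 of 19 for filament ends and turnover and 2 of 8 for transcription control. Every filled point lies below 0. Of all genes 3.79% fell and 5.72% rose.

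The promoters of the members were read for motifs because several members fell together. RefSeq (GRCm38.p6) gave 9 promoter entries for 8 of the 10 genes, with none for Lmod3 and Tmod3 and a pair for Tpm3, and the 250 bases before each start were searched on both strands. The E-box, CANNTG, which muscle regulators such as MyoD bind, was present in 7 of these 9 entries and in 66.2% of all 32851 entries. The 7 were those of Lmod1, Lmod2, Tmod4, Tpm1, Tpm2 and the pair of Tpm3. Of these genes only Tpm1 had probes that passed the test. The core of the M-CAT element, CATTCC, bound by TEAD factors, was present in 3 of the 9, those of Lmod1, Tmod1 and Tpm1, and in 12.6% of all. The CArG box of Srf and the MEF2 site were found in none of the 9, and in 1.47% and 2.92% of all entries. The entries of Tmod1 (chr4:46038972-46039221, plus strand) and Tpm1 (chr9:67049214-67049463, minus strand) are shown as those of members that fell, with E-box and M-CAT matches in capitals.
Tmod1 promoter: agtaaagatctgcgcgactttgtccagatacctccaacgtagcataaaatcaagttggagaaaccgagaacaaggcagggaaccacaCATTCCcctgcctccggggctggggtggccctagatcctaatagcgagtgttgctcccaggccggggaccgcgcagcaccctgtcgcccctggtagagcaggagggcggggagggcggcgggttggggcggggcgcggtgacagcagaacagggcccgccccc
Tpm1 promoter: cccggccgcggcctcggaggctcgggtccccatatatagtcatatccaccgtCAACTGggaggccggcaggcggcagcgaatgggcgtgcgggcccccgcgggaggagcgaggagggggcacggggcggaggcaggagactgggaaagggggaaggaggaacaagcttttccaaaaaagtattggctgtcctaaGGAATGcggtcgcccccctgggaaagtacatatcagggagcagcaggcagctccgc
The M-CAT match lies 163 to 158 bases before the start in Tmod1 and, on the opposite strand, 56 to 51 bases before it in Tpm1. The Tpm1 entry has an E-box 198 to 193 bases before the start and the Tmod1 entry has none. These are matches of letters in a window, and binding was not measured.

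Markers of cell types were read in the same arrays, where 3.79% of all genes fell and 5.72% rose. Myog and Myod1 are in the marker lists as well as in the list of transcription control. All 5 genes of differentiating muscle had a kept probe and 4 fell, Myog, Myh3, Tmem8c and Mylpf, while Ckm did not pass (adjusted p of 0.188 in limma). Mylpf cleared background on only 2 mimic scans but on all 4 scramble scans, so it was kept only with its scramble scans. The summed linear signal of all 5 genes, relative to the 75th percentile, was 8.96 to 13.0 in the mimic arrays and 238 to 256 in the scramble arrays. Of 7 myoblast markers 5 had a kept probe and 4 fell, Myod1, Cdh15, Des and Itga7, with sums of 227 to 241 and 432 to 488. Pax7, a marker of resting and early muscle precursors, did not clear background on any scan, and Myf5 cleared it on 3 mimic scans. Of 5 smooth muscle markers 2 had a kept probe, Smtn, which did not pass, and Actg2, which fell by 1.32 on the log2 scale (adjusted p of 0.0144 in limma). The sums were 29.9 to 33.6 and 27.4 to 37.2, and Myh11 and Cnn1 did not clear background on any scan. Of the cardiac markers Myh6, Nppa, Tnni3 and Myl7 did not clear background on any scan. Nppb cleared it on 5 mimic and 0 scramble scans, and so was kept through its mimic scans alone. It was 1.61-fold higher with the scramble arrays set to their floor. Its fit, against scramble values not above background, had an adjusted p of 0.000270 in limma. No marker of epithelium or fat cells cleared background, nor did Ptprc and Lyz2 of leukocytes or Pecam1 and Cdh5 of endothelium. The other leukocyte markers, Itgam and Csf1r, and the endothelial Kdr cleared background on all 10 scans, with differences of 0.15 ± 0.19, 0.17 ± 0.25 and 0.38 ± 0.23 (SE) that did not pass. The sums were 16.9 to 19.3 and 16.3 to 16.5 for leukocyte markers, and 3.06 to 4.07 and 2.55 to 3.25 for endothelial markers. Apart from Ckm, the markers of differentiating muscle thus fell, as did Lmod3, Tmod1 and the overlapping pair of Tpm1 probes. So did 4 of the 5 myoblast markers with a kept probe. The part of either marker list in the falls of the members was not tested. In each scan 25.4% to 34.6% of spots cleared background, no member spot was saturated, and the number of arrays limits the precision.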

How the data were processed

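The deposited scanner files hold linear spot intensity. Per the file headers the scanner software was Feature Extraction, version 12.0.0.7. The submitters' processing notes give it as 10.7.3.1. The deposited series matrix, also intensity, served as an alternative. RNA (150 ng) was labelled with Cy3 for a 1-colour Agilent array with 62976 spots, 59305 of them not controls.

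Processed signals were divided by the 75th percentile of the scan over non-control probes and taken to log2. Spots marked non-uniform or as population outliers were left out. A probe counted as well above background where at least 0.5 of its spots did. Each probe was fitted in limma 3.58.1 (R 4.3.3; lmFit, eBayes), where 3 degrees of freedom came from the arrays and 5.22 from the prior. P-values were adjusted by Benjamini-Hochberg over all probes, with a threshold of 0.05. Pairs of probes were tested on their per-array difference. The script was tested on simulated data. Members and lists were chosen with earlier results of these data known. Of the lists, the 4 called genes with the lowest p are named, and other genes named were chosen after their values were seen. Gene names are those of the array files. No mm9 annotation was used, so the exon of a probe is not given.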

Additional observations from a re-analysis of the deposited data

How the results depend on the processing

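The 4 probes that fell (Lmod3, Tmod1 and the Tpm1 pair) passed under every alternative in which they were tested. The differences were −5.50 to −4.20 for Lmod3, −4.16 to −2.02 for Tmod1, −2.36 to −1.87 for A_55_P2187038 and −2.14 to −1.87 for A_55_P2187043. Lmod3 and Tmod1 were not tested where a probe had to clear background on all 10 scans. For Tmod1 each alternative again set scramble signal against mimic values not above background. The Tmod1 value nearest 0 came with normexp background correction. The Tpm2 probe A_55_P2121408 passed in 7 of 20 alternatives.

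Of all probes 1657 passed, 943 higher and 714 lower. With the percentile over probes above background on all 10 scans the split was 762 and 873, and the median of all probes moved from 0.06 to −0.07. The count was 939 with scaling to the array median, 548 without a filter, 5169 with 10 scans as 10 samples and 1044 with the slide row as a block. Leaving out 1 array gave 782 to 4502, the highest without scramble array 1. The lowest counts were 782, 831 and 830 without mimic arrays 1, 2 and 3. Member probes that fell numbered 8, and those that rose 2, with 10 scans as 10 samples, and leaving out 1 array gave 4 to 7 and 0, with 7 without scramble array 1. With replicate numbers as a block 1250 probes passed, 4 of them members. The deviations of same-numbered samples correlated between −0.40 and 0.19, so the numbers were not taken as pairs.

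Of probe pairs 4 passed, against 14 with normexp and 0 to 360 when 1 array was left out (360 without scramble array 1, and 0 without any other). Member pairs numbered 0, against 2 with normexp, 1 with probes above background on all 10 scans (adjusted p of 0.0453 in limma) and 0 to 2 when 1 array was left out.

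Signs turned only near 0. Leaving out 1 array gave −0.010 (without scramble array 2) to 0.40 for Tmod4, −0.45 to 0.078 for the Tpm2 pair, turned without mimic array 2 (0.078) and scramble array 2 (0.02), and −0.24 to 0.016 (without scramble array 1) for the overlapping Tpm1 pair. The causes were not tested. Of 18 to 21 thin filament partners tested 13 to 16 fell under all alternatives, and 1 rose without scramble array 1.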

Other observations

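Other records on the array are described as tropomyosins without carrying a member's gene name, and 2 of them, chosen after their values were seen, bear on the members. Probe A_55_P2078675 at chr9:66876655-66876714 in mm9 reads the record TC1657454, described as a partial cDNA of Tpm1, and lies between Tpm1 probes. It gave −0.97, −0.96 and −1.59 in the mimic arrays against 0.05 and −0.38 in the scramble arrays. It was well above background on 2 of 6 mimic and 4 of 4 scramble scans, and the difference of −1.01 ± 0.27 (SE) had an adjusted p of 0.0521 in limma, so it did not pass. Probe A_55_P1964628 at chr17:22103215-22103274 reads LOC102633627, the record similar to Tpm4. It gave 5.30, 5.53 and 5.23 against 5.21 and 4.81, a difference of 0.34 ± 0.22 (SE) with an adjusted p of 0.366 in limma.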
